A study of Callithrix jacchus with 20 samples.

Results

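NODAL, LEFTY1, LEFTY2, TDGF1, CER1, GDF3, FOXH1, SMAD7 and SKIL, the ligands, co-receptor, antagonists, transcriptional partner and feedback genes of NODAL signalling, were followed by their symbols through the raw and size-factor normalised count tables of marmoset stem cells on the way to the germ line. Of these 9 genes, 7 had a row among the 25102 genes of the tables. LEFTY1 and LEFTY2 had no row under their symbols and are named only. After the filter on low counts, 5 of the 7 (NODAL, GDF3, FOXH1, SMAD7 and SKIL) were among the 15797 genes tested, whereas TDGF1 and CER1 had too few counts and are given by their counts.

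NODAL and Activin A (ActA) are secreted ligands of the TGFβ family that bind the same type I and type II receptors, and NODAL also needs a co-receptor such as TDGF1 (Cripto). The receptors phosphorylate SMAD2 and SMAD3, which enter the nucleus with SMAD4 and bind DNA with partners such as FOXH1. Among the known targets are NODAL itself and its own inhibitors, and in the primate embryo and in pluripotent stem cells the pathway is known for upholding pluripotency and for inducing mesendoderm.

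The data were poly(A) RNA-seq of 20 libraries from marmoset induced pluripotent stem cells (cjiPSCs) and cells induced from them, in 10 conditions with 2 biological replicates each. The line was taken to be DPZ_cjiPSC#2, reprogrammed from foetal fibroblasts, which the study names as its line where it states no other. The RNA-seq passages of the study name no line. The cjiPSCs were kept in TESR medium or in cjPSCM, a medium with TGFβ, FGF2, LIF and several small molecules. From each medium, precursors of mesendoderm (pre-ME) were induced with the GSK3 inhibitor CHIR, either together with ActA (+ ActA) or without it (- ActA). From both kinds of pre-ME of the cjPSCM cultures, embryoid bodies were grown with BMP4, LIF, SCF and EGF, and on day 4 cells double positive for the sorting markers (cjPGCLCs, primordial germ cell-like cells) and double negative cells (somatic cells) were sorted. The sources differ on the markers of the sort, which are INTa6 and EpCAM in the sample titles, CXCR4 and EpCAM in other labels and INTα6 and CXCR4 in the study's methods, so the gate behind these cells is known only as double positive or double negative. In these 4 sorted conditions + ActA and - ActA thus name the treatment of the earlier pre-ME. With the replicates taken as cultures of DPZ_cjiPSC#2, the p-values measure the spread between cultures and not between animals.

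Between 4784964 and 22067099 reads were counted on genes per library (median 11599813), and a floor of 3 counts stood for 1.4 to 6.92 normalised counts, counting error only. The 4 pre-ME libraries from TESR were deep throughout, with 18858625 to 22067099 counts, and the sources used here do not say whether they were sequenced together with the others. The sorted groups differed in the genes of the sort markers and in germ cell genes. The summed normalised count of CXCR4, ITGA6 and EPCAM was 2953 to 5249 in cjPGCLCs and 349.6 to 434 in somatic cells, and that of the germ cell genes SOX17, TFAP2C, PRDM1 and NANOS3 was 1289.7 to 2601 against 166 to 339.9. SOX17, which is also an endoderm gene, made up most of that sum, and each of the 4 genes was called higher in cjPGCLCs with and without ActA (TFAP2C, at a mean of 113 in both arms, against 26.8 and 23.1 in somatic cells). The endoderm gene FOXA2 separated the sorted cells as well, with a mean of 138 in cjPGCLCs + ActA and 437 in cjPGCLCs - ActA against 0 and 2.31 in somatic cells. The pluripotency genes POU5F1, NANOG and LIN28A were called in neither arm. With and without ActA, POU5F1 had means of 1435 and 1419.6 in cjPGCLCs against 1223 and 1237 in somatic cells. NANOG had 217 and 192 against 180.2 and 94.9. SOX2 was called lower in cjPGCLCs with ActA (1466 against 3022) and was not called without. The replicates of the cjiPSCs lay farthest apart, with an SD over genes of the log2 difference of 0.619 in TESR and 0.959 in cjPSCM against 0.311 to 0.566 elsewhere.

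**Figure D1:**
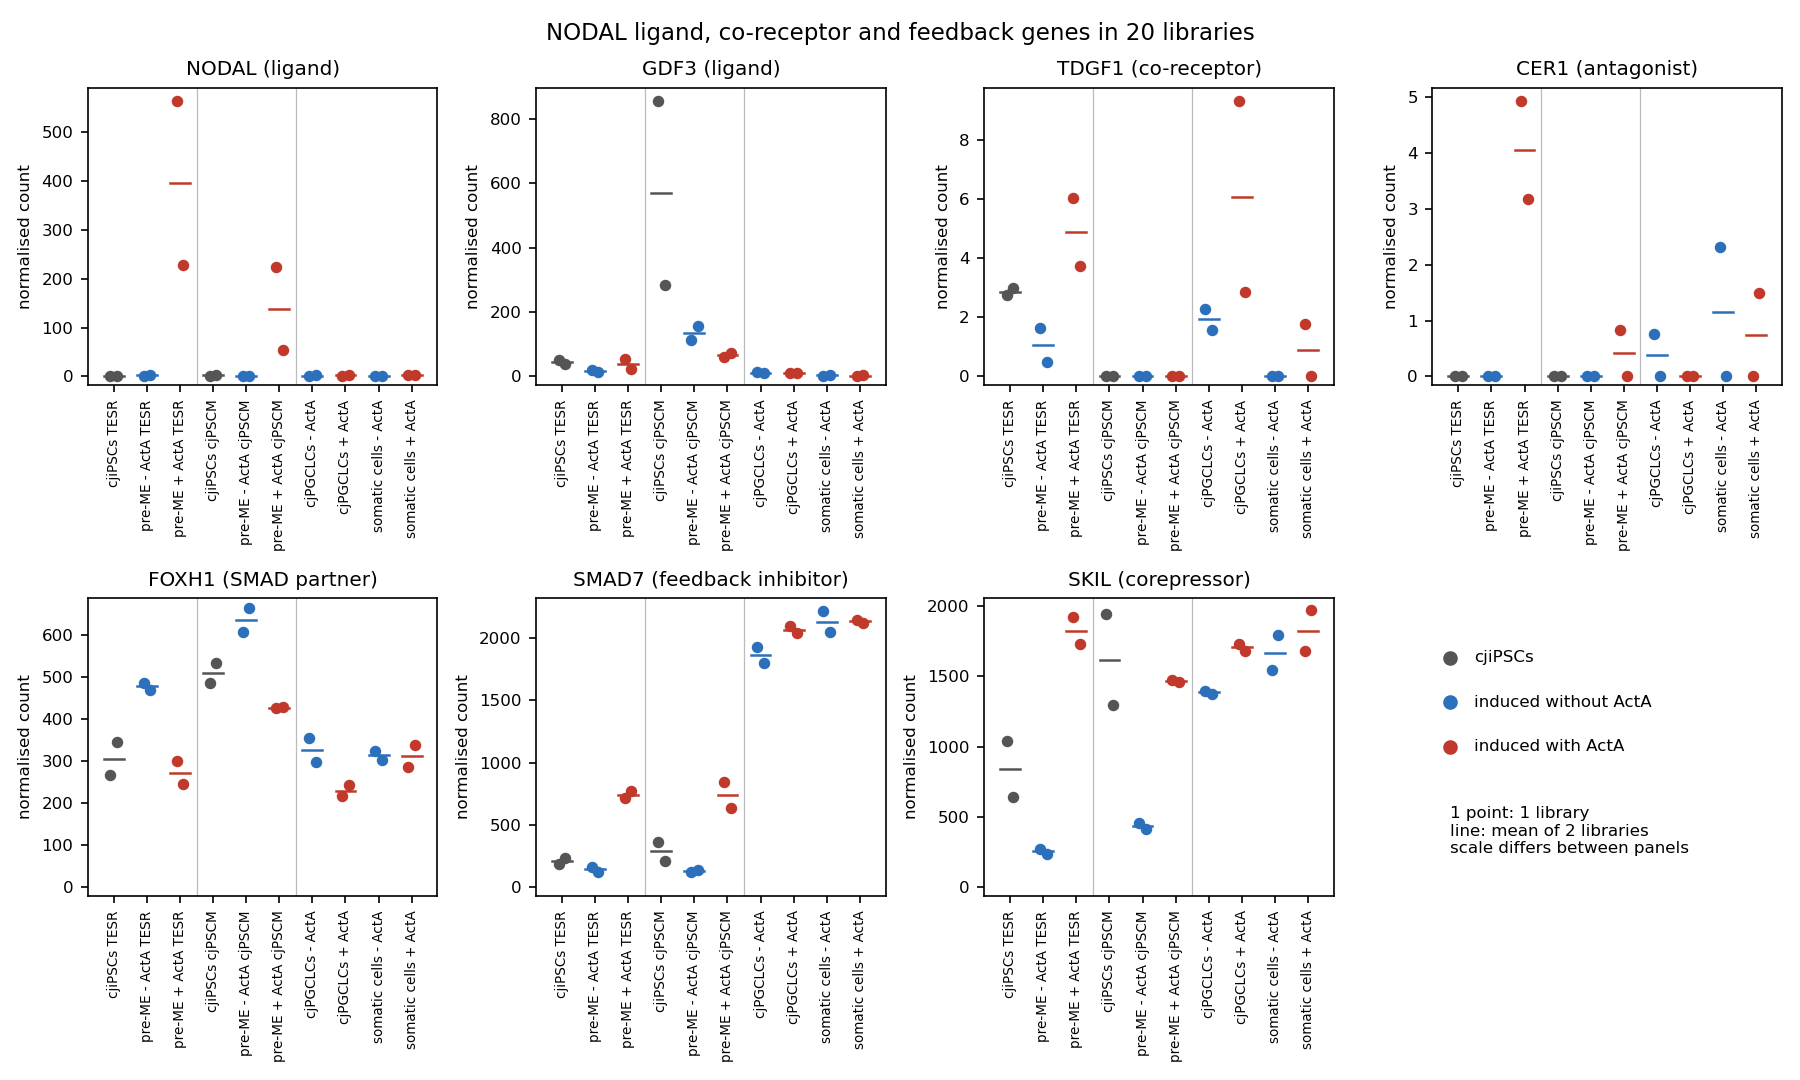
Normalised counts (y axis, scale differing between panels) of the 7 genes with a row, for each of the 10 conditions on the x axis. Each point is 1 library and each line the mean of 2, in grey for cjiPSCs, blue without ActA and red with ActA, and NODAL is high in the pre-ME + ActA libraries alone, at 53.4 to 564.

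The first question was what ActA did to these genes in pre-ME of each medium. NODAL, SMAD7 and SKIL were higher and FOXH1 was lower with ActA in both media, and GDF3 did not pass the test in either. Across all genes tested, 8.84% differed with ActA in TESR pre-ME and 20.9% in cjPSCM pre-ME (edgeR's quasi-likelihood test, Benjamini-Hochberg adjusted p under 0.05), where 4 of the 5 tested members did so in each medium. NODAL passed the filter on low counts only through its + ActA libraries, so its place among the tested genes is not independent of that difference. The members were also chosen with earlier results of these data known, so their share beside that of all genes is a description.

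NODAL, the ligand, had a normalised count of 564 and 228 in the 2 TESR pre-ME + ActA libraries, from 1030 and 430 reads, and of 1.1 and 2.34 in the - ActA libraries, from 2 and 5 reads. In cjPSCM pre-ME it had 224 and 53.4 with ActA, from 268 and 38 reads, and 0 and 0.991 without, from 0 and 1 read. The groups were far apart in both media, although the + ActA replicates differed from each other 2.47-fold and 4.19-fold. In TESR the log2 fold change was 7.72 (SE 0.78, n = 2 and 2, adjusted p = 5.93e-06 by edgeR's quasi-likelihood test). In cjPSCM the adjusted p was 7.01e-05. Since the cjPSCM - ActA group held 1 read, the size there is given as the ratio of summed counts, 433-fold with a 95% counting interval of 77.2 to 17172. NODAL kept its call with any library left out, although its fitted log2 fold change in TESR was 6.93 without replicate 1 of pre-ME + ActA and 8.35 without replicate 2 of pre-ME - ActA.

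In the other 16 libraries NODAL was at the limit of detection, with at most 5 reads. The mean normalised count was 0.551 in cjiPSCs in TESR and 1.95 in cjPSCM, and between 0.774 and 2.38 in the 4 sorted conditions. The 8 conditions besides pre-ME + ActA could not be ordered, since each overlapped its neighbours. Between the 2 highest conditions the lowest TESR library, at 228, lay just above the highest cjPSCM library, at 224.

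GDF3, a ligand of the same family that also works through the co-receptor, moved in opposite directions with ActA in the 2 media, in each case short of the threshold. In TESR pre-ME its normalised count was 52.5 and 23.9 with ActA and 19.2 and 13.1 without (log2 fold change 1.24, SE 0.47, n = 2 and 2, adjusted p = 0.131 by edgeR's quasi-likelihood test). In cjPSCM pre-ME it was 60.9 and 71.6 with ActA and 114 and 157 without (log2 fold change -1.05, SE 0.43, adjusted p = 0.0877 by the same test). The libraries with and without ActA did not overlap in either medium. Without the filter on low counts both differences passed, with an adjusted p of 0.00155 in TESR and 0.00176 in cjPSCM by edgeR, and on the libraries of the comparison alone the one in cjPSCM passed as well (adjusted p = 0.0071).

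TDGF1, the co-receptor, was close to the floor. It had 11 and 7 reads in TESR pre-ME + ActA and 3 and 1 without ActA, a ratio of 4.8 with a 95% counting interval of 1.58 to 19.5. None of the 6 libraries of cjiPSCs and pre-ME in cjPSCM held a read of it, whereas the cjiPSCs in TESR held 5 and 2. Further reads came from cjPGCLCs, with 11 and 2 for + ActA and 3 and 1 for - ActA, and the somatic cells held 1 read in all. TDGF1 has near-identical processed copies in primate genomes, and how the counting treated reads shared with such copies was not tested.

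CER1, a secreted antagonist of NODAL and BMP, had 9 and 6 reads in TESR pre-ME + ActA and none in TESR pre-ME - ActA, which puts it at least 5.34-fold higher with ActA against a floor of 3 counts over the group. The other 16 libraries held 0 or 1 read each. Without the filter on low counts, edgeR gave CER1 an adjusted p of 0.0259 for this comparison, and DESeq2 gave an unadjusted p of 0.235 and no adjusted one. In cjPSCM pre-ME the count was 1 and 0 with ActA and 0 and 0 without, so a difference was not detectable at this depth.

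FOXH1, the forkhead partner that brings SMAD2 and SMAD3 to NODAL targets, was moderately lower with ActA. In TESR pre-ME its normalised count was 299 and 246 with ActA and 486 and 469 without (log2 fold change -0.81, SE 0.15, n = 2 and 2, adjusted p = 0.00191 by edgeR's quasi-likelihood test). In cjPSCM pre-ME it was 426 and 428 with ActA and 606 and 665 without (log2 fold change -0.59, SE 0.15, adjusted p = 0.0122 by the same test). Neither medium had overlapping groups. These calls depended on single libraries. Without replicate 2 of TESR pre-ME + ActA the FOXH1 adjusted p was 0.0523, and in cjPSCM it was 0.105 and 0.0643 without replicate 1 or 2 of pre-ME + ActA and 0.0902 without replicate 2 of pre-ME - ActA, at log2 fold changes of -0.67, -0.59, -0.59 and -0.54.

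SMAD7, the inhibitory SMAD that blocks the receptors and is itself a target of the pathway, rose in both media. Its normalised count was 715 and 771 in TESR pre-ME with ActA and 161 and 124 without, a log2 fold change of 2.38 (SE 0.21, n = 2 and 2, adjusted p = 1.97e-06 by edgeR's quasi-likelihood test). In cjPSCM pre-ME it was 847 and 638 with ActA and 119.7 and 134 without, a log2 fold change of 2.54 (SE 0.22, adjusted p = 1.33e-06 by the same test).

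SKIL, which encodes SnoN, a corepressor of SMAD complexes, was higher with ActA in every library. In TESR pre-ME its normalised count was 1918 and 1727 with ActA and 274 and 234 without, a log2 fold change of 2.84 (SE 0.22, n = 2 and 2, adjusted p = 5.02e-07 by edgeR's quasi-likelihood test). In cjPSCM pre-ME it was 1472 and 1462 with ActA and 459 and 410.1 without, a log2 fold change of 1.73 (SE 0.21, adjusted p = 5.17e-05 by the same test). With the study's further condition of a log2 fold change beyond 2, which 2.00% of all genes met in TESR and 2.11% in cjPSCM, NODAL and SMAD7 were called in both media and SKIL in TESR.

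**Figure D2:**
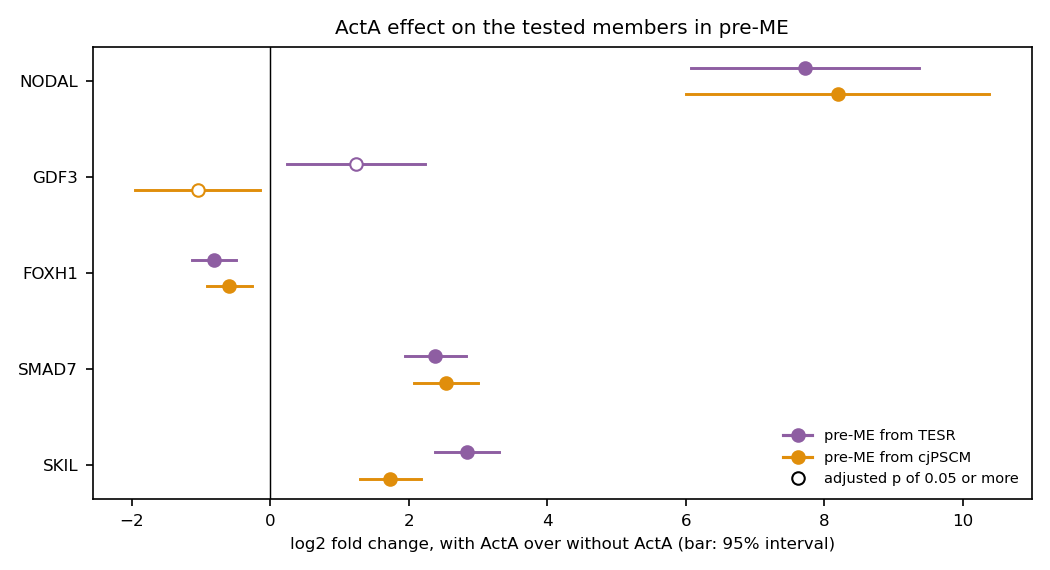
Log2 fold change of the 5 tested members with ActA over without ActA in pre-ME (x axis, with 95% intervals as bars), in purple for TESR and in orange for cjPSCM. Filled points passed an adjusted p of 0.05 in edgeR, and the open points are GDF3, at 1.24 in TESR and -1.05 in cjPSCM, while the point of NODAL in cjPSCM rests on 1 read without ActA.

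Whether the ActA effect differed between the media was tested as an interaction, the effect in TESR minus that in cjPSCM, which 0.399% of all genes passed. None of the 5 members passed it in edgeR on all libraries. An unadjusted p under 0.05 was reached by 2 of them (GDF3 and SKIL), and by 2747 of the 15797 genes tested. For GDF3 the difference between the log2 fold changes was 2.30 (SE 0.64, 95% interval 0.95 to 3.64, adjusted p = 0.126), and for SKIL it was 1.11 (SE 0.29, 95% interval 0.49 to 1.72, adjusted p = 0.109). Both passed in DESeq2 (adjusted p = 0.0408 for GDF3 and 0.0212 for SKIL), in edgeR without the filter on low counts (1.25e-05 and 0.000381) and in edgeR on the 8 libraries of the comparison (0.0182 and 0.00568), so the calls on GDF3 and SKIL turned on the tool and the filter. The interval of the difference was -0.78 to 0.46 for SMAD7, -0.66 to 0.23 for FOXH1 and -3.71 to 2.78 for NODAL, which leaves room for differences of that size. The medium and any difference in handling between the 2 sets of libraries cannot be told apart.

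Some markers of cell types moved with ActA as well. The summed normalised count of the primitive streak genes TBXT, MIXL1, EOMES and GSC was 156 to 195 in TESR pre-ME - ActA and 397 to 800.1 in + ActA, and in cjPSCM pre-ME it was 11.9 to 15.3 and 33.7 to 63.4. For 5 endoderm genes (FOXA2, SOX17, FOXA1, GATA6 and HHEX) the sum was 167 to 255 and 439 to 792 in TESR. In cjPSCM it was 839 to 920.3 and 858 to 969. GATA6 alone was called, in TESR, with a mean of 108 without ActA and 459 with it. FOXA2 had 5.12 and 2.97 there, and no tested endoderm gene was called in cjPSCM. Of 3 amnion genes (ISL1, GABRP and VTCN1) the sum was 209.6 to 233 and 926 to 935 in TESR, and 60.1 to 64.4 and 126 to 127 in cjPSCM. ISL1 made up nearly all of it, with means of 215 without and 926 with ActA in TESR and 61 and 126 in cjPSCM. GABRP (3.59 and 1.87 in TESR) and VTCN1 (2.89 and 2.4) were near the floor and were called in neither medium. For 5 genes of mesoderm and mesenchyme (HAND1, TBX6, MESP1, PDGFRA and COL3A1) the sum was 171 to 215 and 336 to 517 in TESR. In cjPSCM it was 216 to 248 and 170.2 to 232. HAND1 alone was called, in TESR, with a mean of 12.6 without ActA and 82.9 with it. COL3A1 (89.6 and 218) and PDGFRA (75.7 and 113) did not pass there. TBX6 (7.62 and 6.49) and MESP1 (7.7 and 6.5) were slightly lower with ActA, also without a call. The 4 pluripotency genes moved in different directions. NANOG was higher with ActA, with a mean of 1079 against 118 normalised counts in TESR (adjusted p = 2.05e-06 by edgeR's quasi-likelihood test) and 1494 against 873 in cjPSCM (adjusted p = 0.0474). The NANOG effect was larger in TESR by the interaction test, with a log2 difference of 2.44 (SE 0.38, adjusted p = 0.0114 by edgeR's quasi-likelihood test). POU5F1 was called higher in cjPSCM (2975 against 1657, adjusted p = 0.00338) and LIN28A lower there (8768 against 13489.7, adjusted p = 0.0449), while SOX2 was called in neither medium. FOXA1 was at 0 in cjPSCM pre-ME + ActA. The part of such cells in the values of the members was not tested, and in bulk RNA a change in the share of cells that express a gene and a change in the RNA per cell cannot be told apart.

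The members were then set beside the other genes of the pathway. Of 37 genes 36 had a row, CFC1 being the exception, and 34 were tested, ACVR1C and GSC having too few counts. With ActA, 14 were higher and 1 lower in TESR pre-ME (median log2 fold change 0.61, against 0.01 over all genes), and 13 were higher and 3 lower in cjPSCM pre-ME (median 0.40, against -0.02), where the background over all genes was 5.63% higher and 3.20% lower in TESR and 11.4% higher and 9.54% lower in cjPSCM. In both media 11 genes were higher and 1 was lower, a joint count for which no share over all genes was taken. The 37 genes were chosen with earlier results of these data known, so setting them beside the background is a description and no test.

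Among the ligands, TGFB1 was higher with ActA by a log2 fold change of 1.49 in TESR and 1.34 in cjPSCM, and TGFB2 by 1.78 and 0.80. GDF1 passed in cjPSCM (0.93, with 0.02 in TESR and an adjusted p of 0.192 for the difference), and its reads may be shared with CERS1, with which it is transcribed in many species. INHBA, the subunit of Activin A itself, had values of 1.47 (adjusted p = 0.0773) and 1.33 (adjusted p = 0.0591), and INHBB and TGFB3 did not pass either.

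Among 6 tested receptors and co-receptors, none was higher with ActA. TGFBR3, the co-receptor betaglycan, was lower in both media, by -0.91 (adjusted p = 0.0246) in TESR and -1.51 (adjusted p = 0.00106) in cjPSCM. In cjPSCM pre-ME the receptors TGFBR1 (-0.63) and ACVR2B (-0.59) were lower as well. ACVR1B, the type I receptor of NODAL and Activin, lay at -0.14 and 0.07.

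Of the signal-transducing SMADs, SMAD3 rose by 1.25 (SE 0.15, adjusted p = 2.61e-05) in TESR and 1.30 (SE 0.15, adjusted p = 2.87e-05) in cjPSCM, while SMAD2 (0.20 and -0.26) and SMAD4 (0.06 and -0.07) did not pass. The ubiquitin ligases SMURF1 and SMURF2, which work together with SMAD7, rose by 0.47 and 0.72 in TESR and by 0.52 and 0.85 in cjPSCM. FURIN, a convertase that cleaves the NODAL precursor, rose by 1.29 and 1.66, and PCSK6, the other convertase, had 0.50 and 0.38 and did not pass.

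Among the antagonists, PMEPA1, which sequesters SMAD2 and SMAD3, had 6.03 and 13.6 normalised counts in TESR pre-ME - ActA and 284 and 248 in + ActA, a log2 fold change of 4.72 (SE 0.43), or 5.44 without replicate 2 of pre-ME - ActA. In cjPSCM it had 63.1 and 50.5 without and 512 and 531 with ActA, a log2 fold change of 3.16 (SE 0.37). FSTL3, a secreted binder of Activin, rose by 2.14 and 2.13, and BAMBI, a pseudoreceptor, by 1.23 in TESR, with 0.14 in cjPSCM. FST, follistatin, did not pass (0.76 and 0.07). Of the nuclear corepressors and partners, TGIF1 rose by 0.60 and 0.37, SKI, the relative of SKIL, was at 0.03 in TESR and 0.52 in cjPSCM, where it passed, and TGIF2, DRAP1 and TRIM33 passed in neither medium.

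Among the mesendoderm targets, EOMES rose by 1.55 and 2.18 and MIXL1 by 3.56 and 1.78. In cjPSCM both calls were lost with counts thinned to equal depth, EOMES at 1.57 (adjusted p = 0.133) and MIXL1 at 0.71 (adjusted p = 0.587), and DESeq2 gave MIXL1 an adjusted p of 0.0504. TBXT rose in TESR by 1.94, a call lost in DESeq2 (adjusted p = 0.256) and with thinned counts (0.065). GATA6 rose in TESR by 2.10 and lay at -0.01 in cjPSCM. FOXA2 and SOX17 did not pass in either medium. The called genes that kept their call in every alternative tried were TGFB2, SMAD3, FSTL3, PMEPA1, FURIN, MIXL1 and GATA6 in TESR and TGFBR3, SMAD3, SMURF2, FSTL3, PMEPA1 and FURIN in cjPSCM.

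Several of these calls rested on single libraries. EOMES stood at 0.78 in TESR without replicate 1 of pre-ME + ActA and at 2.94 in cjPSCM without replicate 1 of pre-ME - ActA. In TESR 15 pathway genes passed, and 9 did so without replicate 1 of pre-ME - ActA, where TGFB1, TGFBR3, SMURF1, SMURF2, EOMES and TBXT were lost (adjusted p of 0.0503 for TBXT to 0.318 for SMURF1), and also 9 without replicate 2, where TGFB1, SMURF1, BAMBI, TGIF1, EOMES and TBXT were lost (0.0611 for SMURF1 to 0.256 for TBXT). Without replicate 1 of TESR pre-ME + ActA, TGFB1, SMURF1, BAMBI, EOMES and TBXT were lost (0.095 for TGFB1 to 0.347 for EOMES), and without replicate 2 TGFB1, TGFBR3 and SMURF1 (0.0994 for TGFB1 to 0.323 for TGFBR3).

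In cjPSCM 16 pathway genes passed, and 6 did so without replicate 1 of pre-ME + ActA, where GDF1, TGFB1, TGFB2, ACVR2B, TGFBR1, SMURF1, SKI, TGIF1, EOMES and MIXL1 were lost (adjusted p of 0.0838 for TGFB1 to 0.373 for TGIF1). Without replicate 2 of pre-ME + ActA, ACVR2B, TGFBR1 and TGIF1 were lost (0.0568 for TGIF1 to 0.142 for ACVR2B). Without replicate 1 of pre-ME - ActA 9 passed and GDF1, TGFB1, TGFB2, ACVR2B, TGFBR1, TGIF1 and MIXL1 were lost (0.056 for TGFB1 to 0.305 for ACVR2B), and without replicate 2 of it 7 passed and GDF1, TGFB1, TGFB2, TGFBR1, SMURF1, SKI, TGIF1, EOMES and MIXL1 were lost (0.0517 for TGFBR1 to 0.143 for TGIF1).

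**Figure D3:**
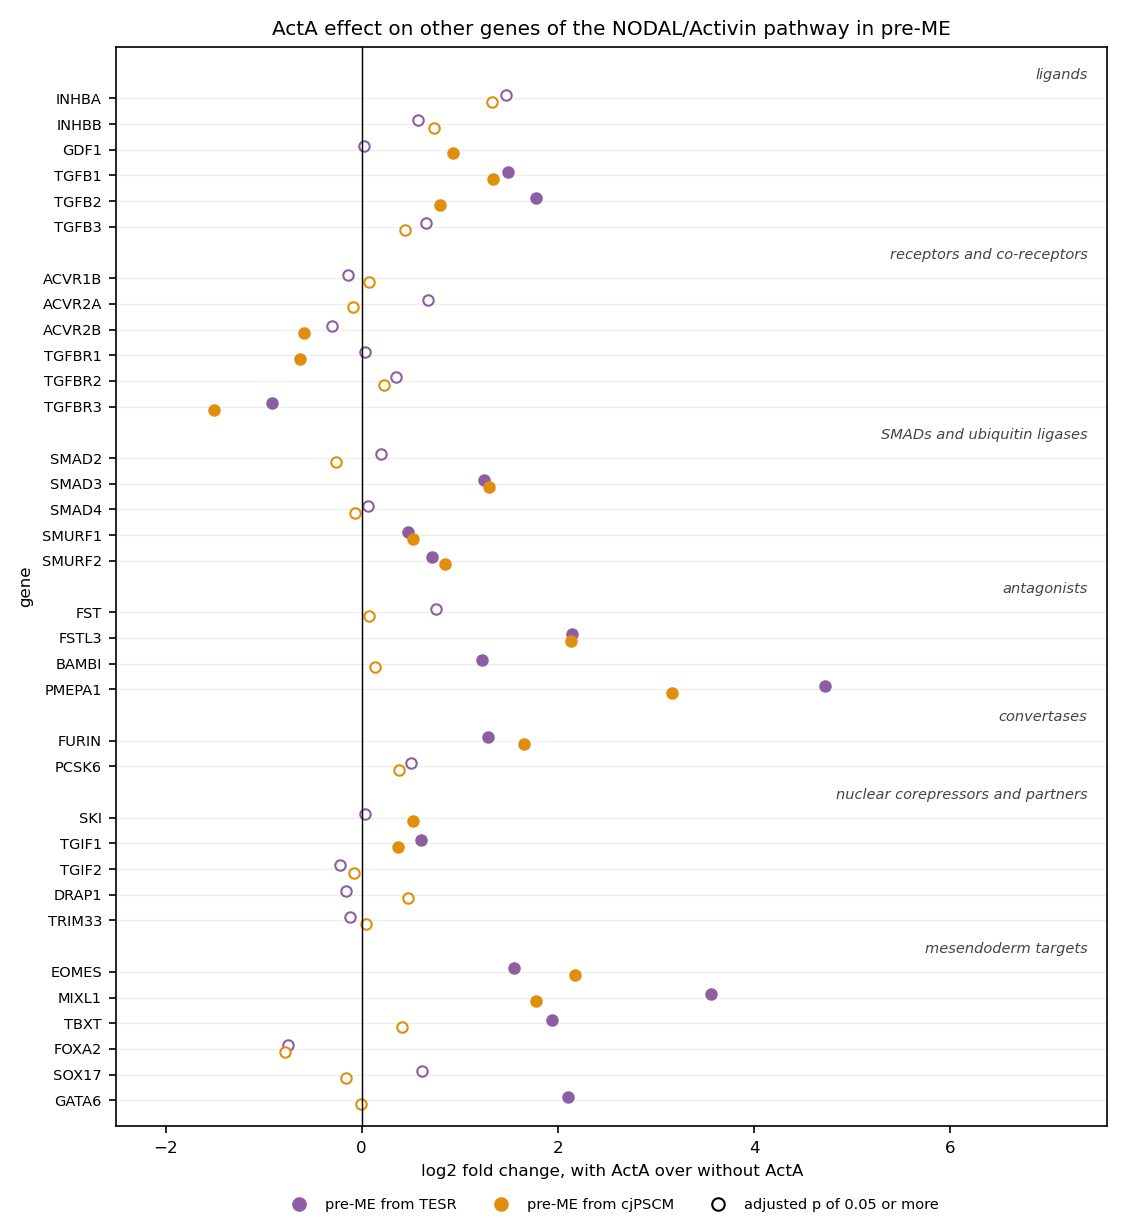
Log2 fold change with ActA over without ActA in pre-ME (x axis) for 34 further genes of the pathway, grouped by role, in purple for TESR and in orange for cjPSCM. Filled points passed an adjusted p of 0.05 in edgeR, and PMEPA1 lies farthest to the right in TESR, at 4.72.

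The second question was how the members differed between cjiPSCs of the 2 media. GDF3, FOXH1 and SKIL were higher in cjPSCM (3 of 5, where 18.1% of all genes were higher and 36.2% differed in either direction). GDF3 had 855 and 283 normalised counts in cjPSCM and 49.6 and 38.7 in TESR, the highest of its 10 conditions, with a log2 fold change of 3.64 (SE 0.44, n = 2 and 2, adjusted p = 8.1e-06 by edgeR's quasi-likelihood test). The replicates in cjPSCM differed 3.02-fold and both lay above every other library of the series. The GDF3 call held with either left out, at a log2 fold change of 2.60 without replicate 1 of the cjiPSCs in cjPSCM and 4.23 without replicate 2. FOXH1 had 486 and 534 in cjPSCM and 267 and 345 in TESR (log2 fold change 0.73, adjusted p = 0.00148), and SKIL 1940.4 and 1297 against 1038 and 639 (0.92, adjusted p = 0.00226). Tested on these 4 libraries alone, GDF3 kept its call (adjusted p = 0.000283), while FOXH1 and SKIL did not (0.162 and 0.0911). SMAD7, at 365 and 209 in cjPSCM and 188 and 234 in TESR, overlapped between the media (adjusted p = 0.103). Lineage markers moved between the media too. The sum of the 5 endoderm genes was 269 to 393 in cjiPSCs in TESR and 3076 to 4386 in cjPSCM. The means were 159 and 2527 for GATA6, 39.9 and 687 for HHEX and 131 and 511 for SOX17. FOXA2 stayed low, with a mean of 0.745 and 4.38 from 1 and 7 reads, and FOXA1 was at or under the floor of 3 counts in both media. The sum of the primitive streak genes was 339 to 554 and 7.41 to 15.1, with a mean of 433 and 3.1 for EOMES. The part of these lineage markers in the values of the members was not tested.

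From cjiPSCs to pre-ME the members split by ActA. In TESR pre-ME + ActA, where 34.5% of all genes differed from the cjiPSCs, NODAL, SMAD7 and SKIL were higher. NODAL stood at 1460 reads in the 2 libraries against 2 in the cjiPSCs, a ratio of 489 with a 95% counting interval of 135 to 4043, SMAD7 rose by a log2 fold change of 1.85 (adjusted p = 7.94e-06) and SKIL by 1.11 (adjusted p = 0.00061). In TESR pre-ME - ActA, where 36.6% of all genes differed, SKIL was lower by -1.73 (adjusted p = 1.64e-05), GDF3 was lower by -1.48 (adjusted p = 0.0249) and FOXH1 was higher by 0.67 (adjusted p = 0.00272). SKIL thus lay above the cjiPSCs with ActA and below them without. In these TESR comparisons the stage and any difference in handling between the pre-ME and cjiPSC libraries cannot be told apart. The GDF3 call was lost without replicate 1 of the cjiPSCs (adjusted p = 0.179) or replicate 2 of the pre-ME (0.16), and with counts thinned to equal depth (0.07).

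From cjPSCM, NODAL and SMAD7 were again higher in pre-ME + ActA, while GDF3 was lower, which it had not been by the test in TESR (-0.24, adjusted p = 0.719). In pre-ME + ActA, where 17.7% of all genes differed from the cjiPSCs, NODAL was higher (306 reads against 3, a ratio of 92.7 with a 95% counting interval of 31.4 to 452), SMAD7 was higher by 1.37 (adjusted p = 0.000263) and GDF3 lower by -3.11 (adjusted p = 0.000123). SKIL, at 1472 and 1462, lay within the range of the cjiPSCs. In pre-ME - ActA, where 38.0% differed, SKIL was lower by -1.87 (adjusted p = 9.51e-06), GDF3 by -2.06 (adjusted p = 0.000919) and SMAD7 by -1.17 (adjusted p = 0.000694). SMAD7 had been at -0.54 in the same comparison in TESR (adjusted p = 0.06). The size of the GDF3 differences moved with the cjiPSC replicates in cjPSCM. It was -2.07 and -1.02 with and without ActA when replicate 1 was left out, and -3.71 and -2.65 without replicate 2, with the calls kept. These comparisons borrow the spread of all 10 conditions. On the libraries of each comparison alone, NODAL, GDF3 and SMAD7 lost their calls for pre-ME + ActA (adjusted p = 0.0648, 0.0725 and 0.097), and GDF3 and SMAD7 for pre-ME - ActA (0.0682 and 0.0845) in the same directions. The + ActA and - ActA comparisons share the cjiPSC libraries.

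In the step from pre-ME to cjPGCLCs, NODAL fell to the limit of detection in the + ActA arm and SMAD7 rose in both arms. Between cjPGCLCs and pre-ME of the + ActA arm, which 48.4% of all genes distinguished, NODAL fell from 306 reads to 3, a ratio of 101 with a 95% counting interval of 34.1 to 491. GDF3 fell by 2.77 on the log2 scale (adjusted p = 0.000956), from 60.9 and 71.6 to 9.3 and 9.95 normalised counts. FOXH1 fell by 0.90 (adjusted p = 0.0002), and SMAD7 rose by 1.48 (adjusted p = 1.87e-05), from 847 and 638 to 2095 and 2039. SKIL did not pass (0.22, adjusted p = 0.388). Markers of other cell types changed in the same step. The sum of the 5 mesoderm and mesenchyme genes was 170.2 to 232 in cjPSCM pre-ME + ActA and 216 to 248 in - ActA, and 9030.0 to 13832 and 9595 to 13201 in cjPGCLCs, with a mean of HAND1 of 17.5 and 10.1 before and 2496 and 3749 after. The amnion genes summed to 126 to 127 and 60.1 to 64.4 in pre-ME and to 1629 to 1767 and 1801 to 2056 in cjPGCLCs, and the somatic cells held 8548 to 16399 of the mesodermal and 1542 to 2048 of the amnion sum. The part of these cells in the values of NODAL, GDF3, FOXH1, SMAD7 and SKIL was not tested.

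In the - ActA arm, where 40.0% of all genes differed, GDF3 fell by 3.59 (adjusted p = 6.37e-05) and FOXH1 by 0.97 (adjusted p = 0.000109). SMAD7 rose from 119.7 and 134 to 1928 and 1798, a log2 fold change of 3.87 (SE 0.23, adjusted p = 2.52e-09), and SKIL from 459 and 410.1 to 1396 and 1377, a log2 fold change of 1.66 (SE 0.21, adjusted p = 1.37e-05). SMAD7 and SKIL thus stood at 1798 to 2095 and 1377 to 1728 in the 4 cjPGCLC libraries, whatever their level in the pre-ME of that arm had been. TDGF1 went from no read in the pre-ME of either arm to 11 and 2 with ActA, at least 4.39-fold higher against a floor of 3 counts over the group, and to 3 and 1 without.

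**Figure D4:**
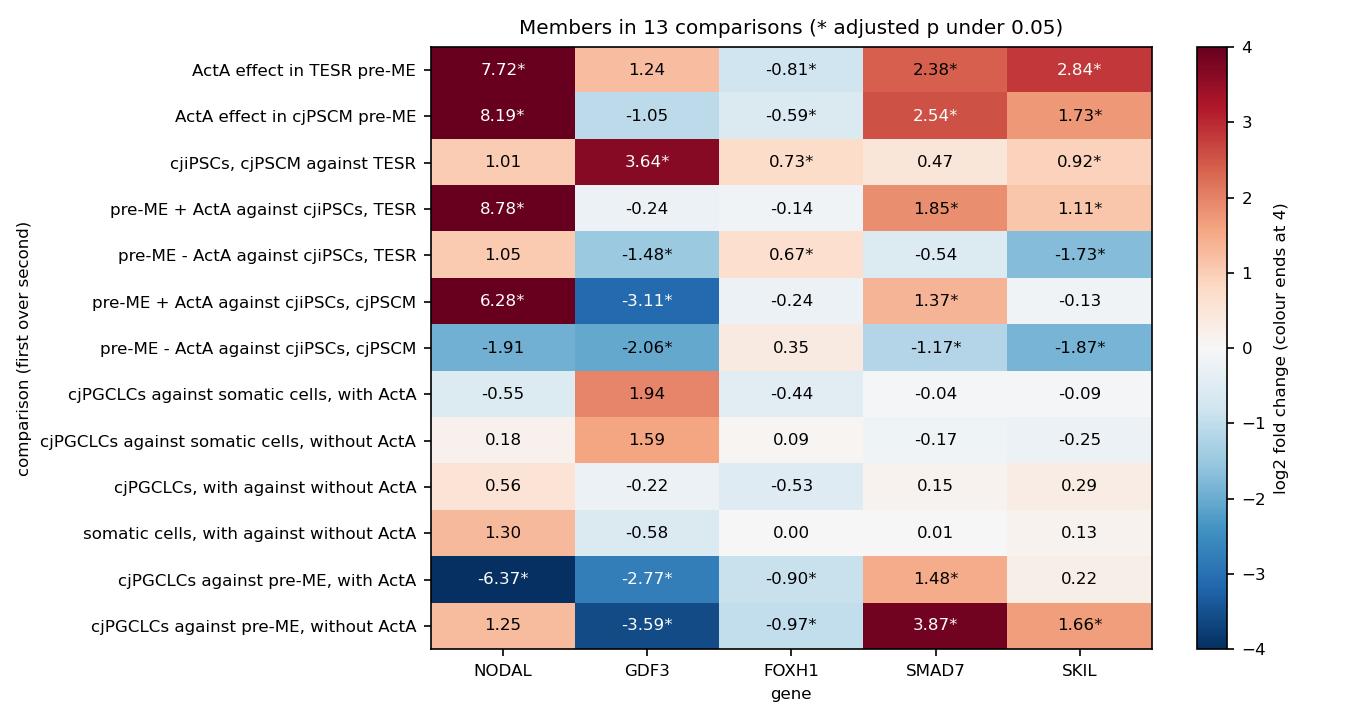
Log2 fold change (colour, ending at 4 either way, and printed in each field) of the 5 tested members (x axis) in 13 comparisons (y axis, first group over second). A star marks an adjusted p under 0.05 in edgeR, the 4 comparisons within the sorted cells carry none, and the values of NODAL rest on at most 7 reads in each condition other than pre-ME + ActA.

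On day 4 no member passed the test between the sorted cells. None of the 5 was called between cjPGCLCs and somatic cells in edgeR, with ActA (4.84% of all genes were) or without (9.63%). DESeq2 and every other alternative also gave 0. With ActA 1 member, FOXH1, had an unadjusted p under 0.05, as did 2480 of the 15797 genes tested. Without ActA no member had one, where 3339 of the genes did. GDF3 had 9.3 and 9.95 normalised counts in cjPGCLCs + ActA and 1.77 and 2.98 in somatic cells + ActA, and without ActA 12.2 and 9.46 against 2.31 and 4.64. The cjPGCLC libraries were thus the higher ones in both arms, yet with 1 to 3 reads in each somatic library the ratio of summed counts was 3.93 with ActA (95% counting interval 1.15 to 20.8) and 3.04 without (1.03 to 12.2). TDGF1 had 13 reads against 1 with ActA, a ratio of 8.51 with a counting interval of 1.28 to 362. SMAD7, at 2146 and 2124 in somatic cells + ActA and 2214 and 2047 in somatic cells - ActA, did not differ from the cjPGCLCs by the test (log2 fold changes of cjPGCLCs over somatic cells of -0.04 with ActA and -0.17 without).

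Nor was there a difference by the earlier ActA treatment that passed the test. Between cjPGCLCs with and without ActA (2.53% of all genes called) FOXH1 had the smallest adjusted p, 0.0944, with 216 and 242 normalised counts against 355 and 298 and a log2 fold change of -0.53 (95% interval -0.86 to -0.19). Between somatic cells with and without ActA (0.0253% called) the log2 fold changes of FOXH1, SMAD7 and SKIL were 0.00, 0.01 and 0.13. The interaction of sorting and ActA (0.0633% called) gave none of the members in edgeR either. Its unadjusted p was under 0.05 for 1 of them, FOXH1 (0.0328 by edgeR's quasi-likelihood test), and for 987 of the 15797 genes tested. NODAL held at most 2 reads in each of the 8 sorted libraries, so differences in it were not detectable at this depth.

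Over the 10 conditions the genes therefore had separate orders of level. GDF3 followed the medium and the stage, from 569 ± 405 (SD, n = 2) in cjiPSCs in cjPSCM, over 135 ± 29.8 and 66.3 ± 7.58 in their pre-ME - ActA and + ActA and 44.1 ± 7.68 in cjiPSCs in TESR, down to 2.38 ± 0.856 in somatic cells + ActA, and 6 of its 9 neighbouring pairs did not overlap. FOXH1 spanned least, from 635 ± 41.5 in cjPSCM pre-ME - ActA to 229 ± 18.5 in cjPGCLCs + ActA, and its values in cjPGCLCs - ActA, somatic cells and TESR cjiPSCs overlapped in sequence. SMAD7 ran from 2135 ± 15.3 in somatic cells + ActA to 127 ± 9.95 in cjPSCM pre-ME - ActA, with pre-ME + ActA of both media (743 ± 39.5 and 742 ± 148) overlapping in the middle. SKIL ran from 1824 ± 203 in somatic cells + ActA to 254 ± 28.2 in TESR pre-ME - ActA, and its 6 highest conditions overlapped one with the next.

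Likeness of pattern was measured as Pearson's r over the 10 condition means of log2(normalised count + 1), as a description, since the points share libraries and depth. Between members, r was 0.79 for SMAD7 and SKIL, -0.73 for FOXH1 and SMAD7, -0.70 for GDF3 and SMAD7, and 0.16, -0.17, 0.12 and 0.34 for NODAL with GDF3, FOXH1, SMAD7 and SKIL. Among all tested genes with a symbol, those most like NODAL were GSX2 (0.98), GADD45B (0.95), MAFG (0.93), NIN (0.92) and BAZ1A (0.92). For GDF3 they were EEF1AKMT1 (0.98), RABIF (0.97) and PDCD6 (0.97), for FOXH1 TMEM255A (0.93), POU3F1 (0.90) and C14H2orf68 (0.88), for SMAD7 DAB1 (0.98), TULP4 (0.98) and ADAMTS18 (0.97), and for SKIL SLC12A4 (0.97), ENTPD7 (0.97) and FSTL3 (0.95).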

How the data were processed

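Poly(A) RNA-seq of 20 libraries was analysed, grouped by condition as the sample labels give it. The authors checked the reads with FastQC 0.11.8, mapped them with STAR 2.7.0a to calJac4, counted them per gene with HTSeq-count 0.11 and deposited the raw count of each gene together with a normalised signal, in which a library's counts are scaled by its DESeq2 size factor. The release of the annotation and the strand setting of the counting are not given in the sources used here, so overlapping, antisense or near-identical genes can share or lose reads. The summary lines for reads outside genes (10.6% to 23.2%) and for ambiguous reads (0.268% to 0.35%) were left out.

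The test on the deposited raw counts was edgeR's quasi-likelihood test (edgeR 4.0.16, R 4.3.3) after filterByExpr and TMM scaling, fitted to all 20 libraries with 1 coefficient per condition and 10 residual degrees of freedom, with p-values adjusted by Benjamini-Hochberg over the 15797 genes tested in each of 15 comparisons. A gene was called at an adjusted p under 0.05. Levels are the authors' normalised counts, and log2 fold changes, standard errors and 95% intervals come from the edgeR fit. A group at 0 was set to 3 counts (a lower bound). Where a group held reads but none of its libraries had more than 3, the ratio of summed counts is given with an exact 95% interval for counting error. Named were the listed members, the called genes of 7 pathway lists, marker genes and the 5 or 3 genes most like a member. The members and lists were chosen with earlier results of these data known. Sequences of the genes were not analysed here, and some genes of the lists are not reported here, nor counted in them.

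The test was first run on simulated counts in which 200 well-covered genes were changed by a log2 fold of 2. It recovered all 200 in the right direction and called 13 others among 15207 genes tested. All conditions had the same spread there, so the simulation does not cover genes with few reads or the wider spread between cjiPSC replicates. Alternatives were DESeq2 1.42.0, RLE factors, no filter, the replicate number as a block, the libraries of a comparison only, counts thinned to 4784964 per library, each library left out in turn, and for likeness a pseudocount of 10 in place of 1 or a minimum mean of 10 normalised counts. Figures were drawn with matplotlib 3.10.9.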

Additional observations from a re-analysis of the deposited data

Results flagged for a closer look

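The ActA effect on GATA6, a transcription factor of endoderm and mesoderm, was the only one of the 34 tested pathway genes to differ between the media by the interaction test on all libraries, with a log2 difference of 2.11 (SE 0.39, adjusted p = 0.0227 by edgeR's quasi-likelihood test). GATA6 had 582 and 337 normalised counts with ActA and 132 and 82.8 without in TESR pre-ME, and 459 and 349.7 with and 421 and 388 without in cjPSCM pre-ME. The call held under the 6 other settings of tool, scaling, filter, block, libraries and depth, with an adjusted p of at most 0.0348, but was lost in 6 of the 8 fits that left out 1 library. The adjusted p was 0.0807 and 0.11 without replicate 1 or 2 of cjPSCM pre-ME + ActA, 0.0544 and 0.0818 without replicate 1 or 2 of cjPSCM pre-ME - ActA, 0.159 without replicate 2 of TESR pre-ME - ActA and 0.173 without replicate 1 of TESR pre-ME + ActA.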

How the results depend on the processing

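Of 38 member results (the ActA effects, their interaction and every other call), 22 kept their direction and their side of the threshold under every alternative. Of 399 alternative values 370 did so, 14 lost a call, 9 gained one and 6 changed sign, all 6 in interactions that had not passed. With 1 library left out, the interaction ranged from -2.60 to 0.96 for NODAL and from -0.35 to 0.07 for SMAD7. The cause was not tested.

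The number of members called for the interaction went from 0 to 2 (GDF3 and SKIL) with DESeq2, without the filter and on the 8 libraries alone, where the count over all genes went from 63 to 338 with DESeq2 and to 2513 on the libraries alone. On the libraries of the comparison only, the number went from 3 to 1 for cjiPSCs of the 2 media, from 3 to 0 for pre-ME + ActA against cjiPSCs in cjPSCM and from 3 to 1 for pre-ME - ActA against them, where fewer samples give the spread. Over all genes the libraries of the comparison alone gave 4296 calls for ActA in TESR pre-ME in place of 1396, and 1794, 178 and 979 for these 3 comparisons in place of 5716, 2802 and 5996. Of the other pathway genes, the interaction called 1 (GATA6) and in the alternatives 5 without the filter and 9 on the libraries alone, and 0 to 1 with 1 library left out. With 1 library left out the ActA effect called 9 to 13 pathway genes in TESR (15 with all libraries) and 6 to 13 in cjPSCM (16).

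The labels give the same replicate numbers to all conditions but not what they share, and the correlation of same-numbered deviations lay between -0.193 and 0.234 over 13 comparisons. With the replicate block none of the 38 member results changed its call or direction, and ACVR2B (adjusted p = 0.0529) and TGIF1 (0.0581) lost theirs in cjPSCM. Over all genes the block gave 1419 calls in place of 1396 for ActA in TESR pre-ME and 3217 in place of 3306 in cjPSCM. Of the 5 genes most like NODAL, 1 (GSX2) remained with a pseudocount of 10, and the 3 most like GDF3 went to ranks 4, 16 and 19. A planned sum of LEFTY1 and LEFTY2 could not be made, since neither has a row. Depth limits TDGF1 and CER1 throughout, and NODAL outside pre-ME + ActA.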
